A study of Mus musculus with 2 samples.

Results

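Hox genes were described by cluster and by paralog group in polyadenylated RNA from whole lung of C57BL/6 mouse embryos at stage E14.5. The members were the 38 Hox genes listed for this account, each matched from its symbol to the NCBI gene number that the deposited tables carry, out of 41709 genes in those tables: 10 of cluster A, 10 of cluster B, 9 of cluster C and 9 of cluster D. One library came from control lungs, described in the series text as wild type, and the other from lungs whose genotype is labelled Prmt5 knockdown and whose title names Shh and Prmt5. Each library was a pool of 7 lungs. How Prmt5 was altered, in which cells, and whether Shh was altered at all is not given in the sources used here. Counted reads came to 22581490 for the control and 25829281 for the knockdown. With 1 library per genotype no difference below has a replicate check and no p-value is given. Every interval is a 95% counting interval, which covers counting error only and not the difference between pools of embryos.

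Hox genes encode homeodomain transcription factors that give cells of the embryo their position along the head-to-tail axis. The mouse genes lie in clusters A to D on different chromosomes, and genes at the same place in each cluster form a paralog group, numbered from 1 at the anterior end to 13 at the posterior end. Genes with low numbers are active in the hindbrain and pharynx, middle numbers in the thorax, where the lung forms, and high numbers in the lumbar region, limbs and tail. In the lung they are expressed mainly in the mesenchyme, and loss of Hoxa5 in mice disturbs the trachea and the lung.

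Both libraries were checked for the targeted gene and for the labelled tissue. Prmt5, a symmetric arginine methyltransferase, went from 2704 control reads to 2127 knockdown reads. Its log2 ratio, here and throughout knockdown over control after scaling, was -0.43 (-0.51 to -0.35), which did not pass the rule of size given in the next paragraph. Shh, the ligand named in the title and made by lung epithelium, had 1124 and 109 reads (log2 -3.44, -3.75 to -3.17). Lung markers were present in both libraries, but 9 of 10 lung epithelium genes and 7 of 10 lung mesenchyme genes were lower in the knockdown library. Markers of other organs were higher there: 11 of 11 liver genes, 10 of 10 heart muscle genes, 8 of 8 measured skeletal muscle genes and 5 of 5 measured adrenal cortex genes. These calls use the rule of the next paragraph, by which 12.3% of all measured genes were lower and 20.7% higher. The values of all marker lists stand beside the Hox results further on. In whole-organ RNA, fewer cells of a type and less RNA per cell cannot be told apart. Which tissue the reads of each library came from was not tested.

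Most measured Hox genes of clusters A and B were lower in the knockdown library, and the measured genes of clusters C and D and Hoxb9 were higher. A gene was called measured with at least 50 reads in 1 library, and it was called higher or lower if its scaled counts also differed by 1.5-fold or more with a counting interval that did not hold a ratio of 1. Of the 38 Hox genes 18 were measured, and 11 were lower, 5 higher and 2 not past the rule. Among all 14569 measured genes 12.3% were lower and 20.7% higher by the same rule. The median log2 ratio was -0.86 over the 18 measured Hox genes and -0.01 over all measured genes, and the mean of the 18 was near 0 (-0.0013), because a few large positive values offset many negative ones. Of the 18, 4 (Hoxb9, Hoxc5, Hoxc6 and Hoxd3) reached 50 reads only in the knockdown library, where they had to be higher to be measured at all, and none only in the control library. Of the 14 with at least 50 control reads, 11 were lower and 1, Hoxc4, higher. With a minimum of 200 reads in 1 library, 10 Hox genes were measured and 0 were higher. The other 20 members comprised 13 with fewer reads and 7 without a read in either library (Hoxa13, Hoxb13, Hoxc11, Hoxc12, Hoxd11, Hoxd12 and Hoxd13).

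Sums over whole clusters need no read minimum and showed the same contrast. The 10 genes of cluster A had 6016 control and 3518 knockdown reads, 1.81-fold lower after scaling (log2 -0.86, -0.92 to -0.80). Cluster B had 9442 and 3871 reads, 2.59-fold lower (log2 -1.37, -1.42 to -1.32). Cluster C had 91 and 509 reads, 5.25-fold higher (log2 2.39, 2.08 to 2.74), and cluster D 92 and 217 reads, 2.22-fold higher (log2 1.15, 0.80 to 1.52). Clusters C and D together supplied 1.17% of Hox reads in the control (exact interval 1.01% to 1.35%) and 8.95% in the knockdown library (8.33% to 9.59%). Clusters A and B thus held most Hox reads in both libraries. All 38 genes together took 0.0693% of the control reads and 0.0314% of the knockdown reads.

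**Figure D1:**
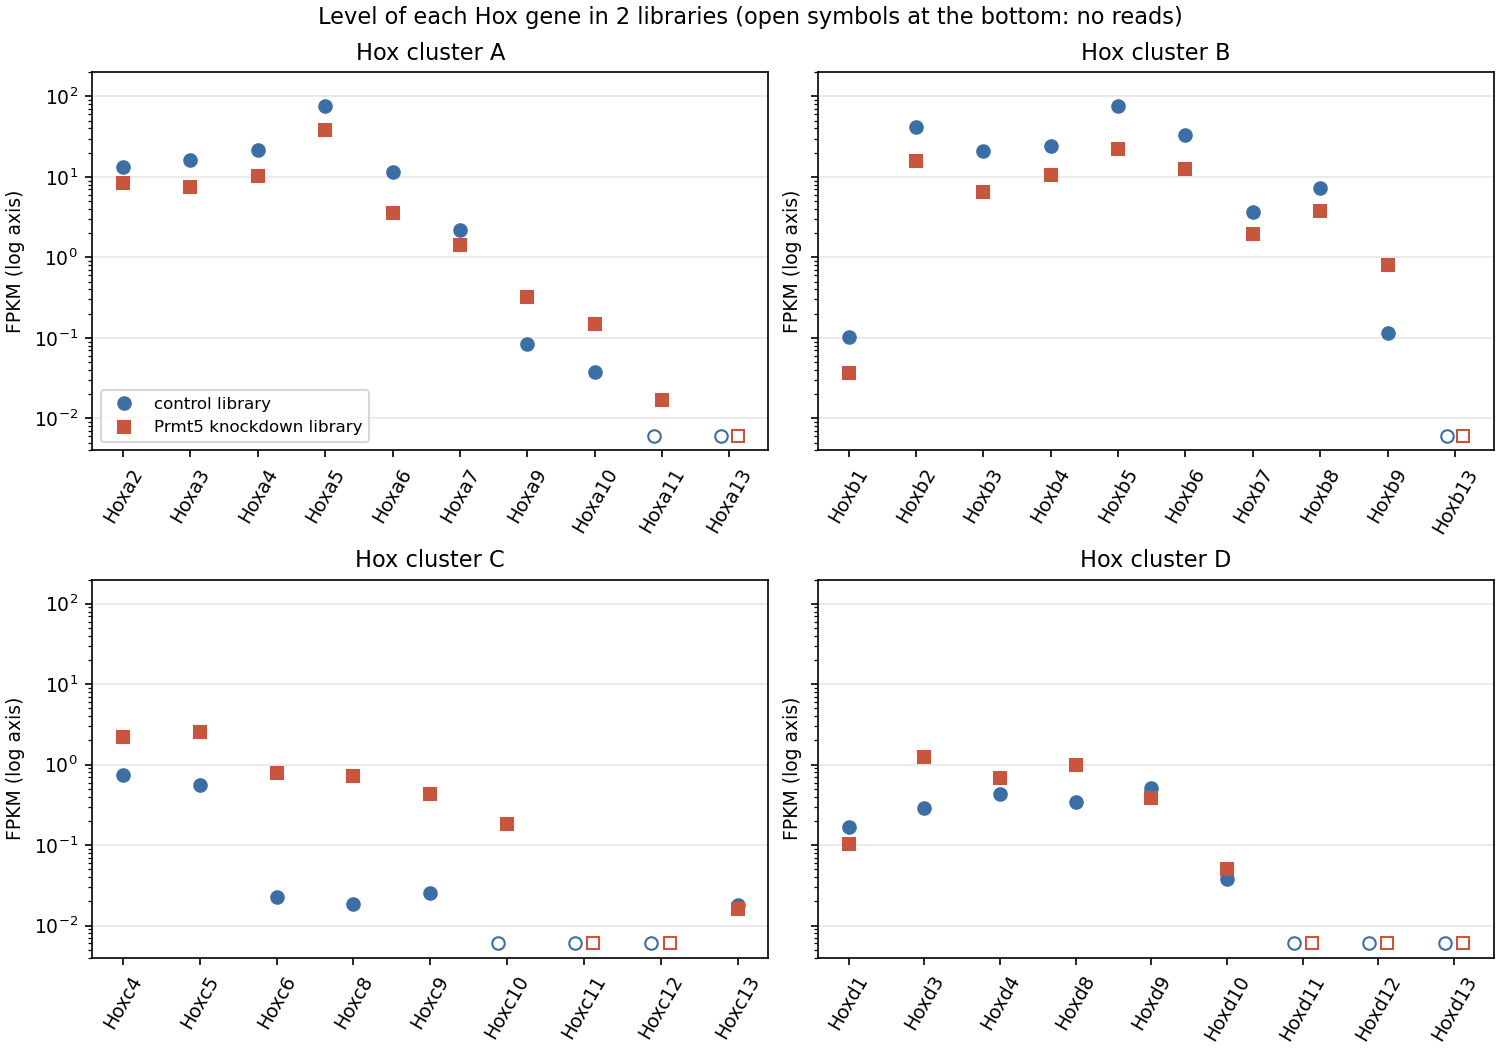
Level of each Hox gene in FPKM (read count over gene length and library total, log axis) in the control library (circles) and the Prmt5 knockdown library (squares), 1 panel per cluster with genes from anterior to posterior; open symbols at the bottom mark genes without reads. Hoxa2 to Hoxa7 and Hoxb2 to Hoxb8 lie lower in the knockdown library, and Hoxc4 to Hoxc10 lie higher.

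Cluster A (chromosome 6) held the Hox gene with the highest level in these lungs. Hoxa5 (chr6:52201754-52204587), which patterns the lung and trachea, stood at 75.5 FPKM, the read count over gene length and library total, among control reads and at 38.7 FPKM among knockdown reads (3201 and 1876 reads), 1.81-fold lower (log2 -0.85, -0.94 to -0.77). Hoxa5 and Hoxb5 did not differ in level beyond counting error in the control, and Hoxa5 stood above Hoxb5 in the knockdown library. Its anterior neighbours were expressed at lower levels. Hoxa4 had 21.4 and 10.4 FPKM (739 and 409 reads, log2 -0.94). Hoxa3, needed for the thymus and parathyroid, had 16.1 and 7.59 FPKM (1262 and 680 reads, log2 -0.98). Hoxa2, which specifies the second pharyngeal arch, had 13.1 and 8.31 FPKM (526 and 381 reads, log2 -0.55, -0.74 to -0.36), a ratio of 1.46 of control over knockdown, just short of the rule. Among the measured genes of this cluster Hoxa6 had the lowest ratio, with 11.6 and 3.54 FPKM (183 and 64 reads, 3.01-fold lower, log2 -1.59, -2.03 to -1.18). Hoxa7, next to it, had 2.2 and 1.43 FPKM (97 and 72 reads, log2 -0.51, -0.97 to -0.06) and did not pass the rule. In all, 4 of the 6 measured genes of cluster A were lower and none higher. The posterior genes stood far below: Hoxa9, a gene of blood progenitors and the posterior trunk, had 6 and 26 reads (log2 1.95, 0.72 to 3.60), Hoxa10 2 and 9 reads, and Hoxa11 0 and 1 read.

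Cluster B (chromosome 11) had the highest summed level of the clusters in the control, 207 FPKM against 140 for cluster A, and came down to 74.3 FPKM against 70.4. Hoxb5 (chr11:96303512-96306121), a gene of lung mesenchyme, went from 75.2 to 22.2 FPKM (3218 and 1089 reads), 3.13-fold lower (log2 -1.65, -1.75 to -1.55). Hoxb2, a hindbrain segment gene, came next at 41.6 and 15.9 FPKM (1364 and 596 reads, log2 -1.28). Hoxb6 followed with 33.1 and 12.4 FPKM (1128 and 485 reads, log2 -1.30). Hoxb5, Hoxb2 and Hoxb6 held ranks 2, 3 and 4 among the Hox levels in both libraries. Hoxb4, known from blood stem cells, had 24.2 and 10.7 FPKM (1403 and 709 reads, log2 -1.07), and Hoxb3 21.3 and 6.53 FPKM (1806 and 633 reads, 3.02-fold lower, log2 -1.60). At the posterior side of this block Hoxb8 had 7.33 and 3.73 FPKM (407 and 237 reads, log2 -0.86) and Hoxb7 3.63 and 1.95 FPKM (104 and 64 reads, log2 -0.78). All 7 genes from Hoxb2 to Hoxb8 were lower. Hoxb9 (chr11:96271330-96276595), their posterior neighbour and a gene of the thoracic skeleton, went the other way, with 7 control and 56 knockdown reads (0.115 and 0.803 FPKM, log2 2.83, 1.78 to 4.29). Hoxb1, which marks a segment of the early hindbrain, had 5 and 2 reads.

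Within paralog groups the cluster B member was lower by more than its cluster A partner in 3 of 6 pairs. The ratio of Hoxa5 to Hoxb5 in FPKM was 1.0 for control reads and 1.74 for knockdown reads, a change by a factor of 1.73 (1.58 to 1.89, a log-normal interval on the read counts that needs no scaling between libraries). The same factor was 1.66 (1.41 to 1.95) for Hoxa2 over Hoxb2 and 1.54 (1.35 to 1.75) for Hoxa3 over Hoxb3. For 3 of the 6 pairs the interval held 1: Hoxa4 over Hoxb4 (1.10, 0.94 to 1.27), Hoxa6 over Hoxb6 (0.81, 0.60 to 1.10) and Hoxa7 over Hoxb7 (1.21, 0.78 to 1.86). No pair had an interval below 1. In the GENCODE M21 annotation, exon bases shared with other genes came to 15.0% for Hoxa2, 27.3% for Hoxb2, 27.1% for Hoxa3 and 52.9% for Hoxb3. The division of reads of these genes is thus uncertain, and with it their factors. For Hoxa5 and Hoxb5 the shared bases were 0% and 3.59%. The gene models that were counted may differ from GENCODE. The deposited FPKM imply a length of 1452 bases for Hoxb2 against 3488 in GENCODE, and 3468 against 6014 for Hoxa3. For Hoxa2 and Hoxa5 the lengths were equal.

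Cluster C (chromosome 15) had a summed level of 1.37 FPKM for the control and 6.86 FPKM for the knockdown. Its highest genes there were Hoxc4 at 0.735 FPKM (52 reads) and Hoxc5 at 0.552 FPKM (34 reads). In the knockdown library Hoxc4 had 2.2 FPKM (178 reads, 3.21-fold higher, log2 1.68, 1.24 to 2.17) and Hoxc5 (chr15:103014008-103017429) 2.52 FPKM (178 reads, 4.88-fold higher, log2 2.29, 1.77 to 2.88). Hoxc6 (chr15:102998226-103011882), a gene of the thoracic level, had 2 and 80 reads (0.0227 and 0.795 FPKM, log2 4.93, 3.34 to 8.31). Hoxc8, which acts in brachial motor neurons and ribs, had 1 and 44 reads (log2 4.82, 2.82 to 10.71), and Hoxc9, which defines thoracic motor neurons, 1 and 19 reads (log2 3.63, 1.51 to 9.54). With so few control reads the size of these ratios depends on the prior count, and the intervals are wide. Hoxc10, a lumbar gene, had 0 and 9 reads, at least 2.83-fold higher if the control count is set to the floor of 3 reads. For 6 of the 7 cluster C genes with reads the counting interval lay above 0, and the other, Hoxc13, a gene of hair and nails, had 1 read in each library. These 6 also differed by 1.5-fold or more. By that rule with a minimum of 1 read, 15.1% of all genes were higher. Of the 6, Hoxc6, Hoxc8, Hoxc9 and Hoxc10 had 0 to 2 control reads, too few to be called lower.

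Cluster D (chromosome 2) was low in both libraries and less uniform. Hoxd3 (chr2:74711993-74748271), an anterior gene of the neck vertebrae, had 19 and 94 reads (0.290 and 1.25 FPKM, log2 2.19, 1.5 to 3.02) and was the measured member of this cluster. Hoxd8 had 15 and 49 reads (0.345 and 0.985 FPKM, log2 1.59, 0.77 to 2.56), 1 read short of the minimum. Hoxd4 had 25 and 45 reads (0.432 and 0.681 FPKM, log2 0.75, 0.03 to 1.53). The counting intervals of these 3 genes lay above 0, and each differed by 1.5-fold or more, beside 15.1% of all genes with a minimum of 1 read. The remaining values were Hoxd9 with 24 and 21 reads (log2 -0.27, -1.19 to 0.63), Hoxd1 with 7 and 5, and Hoxd10, a limb gene, with 2 and 3. In GENCODE M21, 62.8% of the exon bases of Hoxd3 and 52.3% of those of Hoxd4 are shared with exons of other genes, including each other, so the division of reads between them is uncertain. The same holds for Hoxb3, where 52.9% of the exon bases lie opposite the antisense RNA Hoxb3os, because the strand setting of the counting is not given in the sources used here. Of the measured Hox genes, Hoxa5, Hoxa6, Hoxb4, Hoxb6, Hoxb7, Hoxb8, Hoxb9, Hoxc4 and Hoxc6 share no exon bases with another gene in GENCODE M21. The gene lengths implied by the deposited FPKM differ from GENCODE for some of them. They were 3896 against 2408 bases for Hoxc6 and 3133 against 2568 for Hoxc4, and equal for Hoxa5 and Hoxb4. The shared percentages may therefore not hold for the gene models that were counted.

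**Figure D2:**
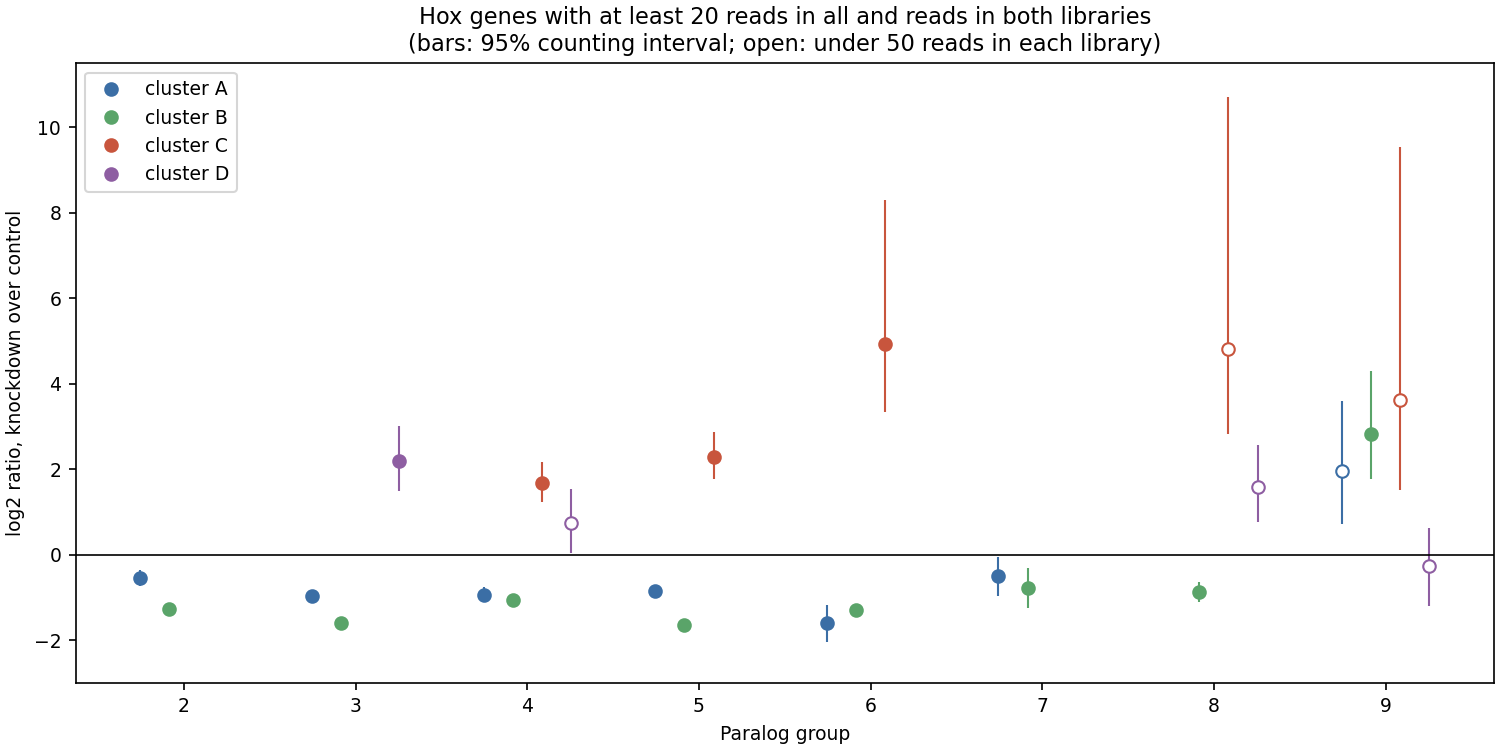
Log2 ratio of knockdown over control for Hox genes with at least 20 reads in all and reads in both libraries, by paralog group; colours give the cluster, bars the 95% counting interval, and open points genes under 50 reads in each library. Genes of clusters A and B in groups 2 to 8 lie below 0, and the cluster C genes and Hoxd3, Hoxd4 and Hoxd8 above it. In group 9 Hoxa9 and Hoxb9 lie above 0 as well, and Hoxd9 lies below it (-0.27) with an interval that holds 0.

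To show members of 1 paralog group whose ratios had opposite signs, with the cluster B gene called lower and the cluster D gene under the read minimum, the 250 bases before the RefSeq start (GRCm38.p6, the assembly named mm10) are given for Hoxb4 and Hoxd4 and for Hoxb8 and Hoxd8, with Hoxa5 as the most abundant gene. The windows are chr6:52204588-52204837 (minus strand), chr11:96318017-96318266, chr2:74721728-74721977, chr11:96281655-96281904 and chr2:74704365-74704614 (plus strand), none of which holds a GENCODE exon. The Hoxb8 window lies inside the RefSeq span of its gene (chr11:96279401-96285325), before a start within that span. It therefore does not describe the bases before the span, which the windows of the other genes adjoin. Sequences run 5′ to 3′, and capitals mark matches on either strand to any of the motifs listed after them.
Hoxa5: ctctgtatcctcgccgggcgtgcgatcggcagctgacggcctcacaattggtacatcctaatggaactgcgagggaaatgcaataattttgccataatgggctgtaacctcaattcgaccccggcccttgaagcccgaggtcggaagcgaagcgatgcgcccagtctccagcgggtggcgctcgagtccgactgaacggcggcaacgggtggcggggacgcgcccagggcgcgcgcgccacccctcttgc
Hoxb4: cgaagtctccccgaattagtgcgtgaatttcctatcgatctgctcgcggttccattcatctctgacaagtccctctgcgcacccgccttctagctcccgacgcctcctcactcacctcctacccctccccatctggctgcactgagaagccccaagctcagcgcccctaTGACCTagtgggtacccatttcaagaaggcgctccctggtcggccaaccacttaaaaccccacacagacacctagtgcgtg
Hoxd4: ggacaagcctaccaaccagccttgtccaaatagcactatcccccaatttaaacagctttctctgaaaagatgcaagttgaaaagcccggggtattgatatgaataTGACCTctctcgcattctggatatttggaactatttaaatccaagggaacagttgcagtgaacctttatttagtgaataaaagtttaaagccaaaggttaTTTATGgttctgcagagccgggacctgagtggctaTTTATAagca
Hoxb8: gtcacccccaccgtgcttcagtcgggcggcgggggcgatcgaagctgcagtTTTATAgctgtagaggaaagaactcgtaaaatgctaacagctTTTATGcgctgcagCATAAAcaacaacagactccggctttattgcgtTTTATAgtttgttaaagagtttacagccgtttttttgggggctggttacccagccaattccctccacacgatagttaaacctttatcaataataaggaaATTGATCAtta
Hoxd8: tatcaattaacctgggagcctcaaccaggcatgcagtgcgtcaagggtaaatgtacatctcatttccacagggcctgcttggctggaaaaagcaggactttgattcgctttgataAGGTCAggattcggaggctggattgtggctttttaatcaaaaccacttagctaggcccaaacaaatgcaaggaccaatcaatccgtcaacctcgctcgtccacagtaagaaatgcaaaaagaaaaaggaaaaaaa
The TATA box was searched as TATAAA, which occurs in 12.4% of the 32851 RefSeq promoter windows of the same length and in 4 of the 24 windows of the 22 Hox genes that had an entry. The composite site of Hox and Pbx proteins was searched as TGATNNAT and occurs in 7.68% of all windows and in 4 Hox windows. For Cdx proteins the core TTTATG was used, which occurs in 10.8% of all windows and in 5 Hox windows. For nuclear receptors such as those of retinoic acid the hexamer AGGTCA was used, which occurs in 14% of all windows and in 6 Hox windows. That hexamer was found in Hoxb4 (81 bases before the start), Hoxd4 (145) and Hoxd8 (135). The Hoxb8 window had 2 TATAAA matches, 2 TTTATG matches and the TGATNNAT match 11 bases before the start inside the gene span. Hoxd4 had a TATAAA match at 10 bases and a TTTATG match at 45 bases. The ratio of observed to expected CpG was 1.11 for Hoxa5, 0.97 for Hoxb8, 0.76 for Hoxb4, 0.49 for Hoxd8 and 0.29 for Hoxd4, so in both pairs the cluster B window was richer in CpG than the cluster D window. The median was 0.72 over Hox windows and 0.37 over all windows. These matches and base counts describe the windows and were not tested against the ratios.

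Read by paralog group, levels in the control library were highest in group 5. The summed FPKM of a group went from 54.7 in group 2 to 37.7 in group 3, 46.8 in group 4, 151 in group 5, 44.7 in group 6, 5.83 in group 7 and 7.70 in group 8. It was 0.731 in group 9 and 0.0757 in group 10, and Hox genes of group 12 had no reads. In the knockdown library group 5 was again highest at 63.5 FPKM, and groups 2, 3, 4 and 6 had 24.2, 15.4, 23.9 and 16.8 FPKM. The order of levels along the axis was thus similar, with smaller sums in groups 2 to 8 and larger ones in groups 9 (1.94 FPKM) and 10 (0.380 FPKM).

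In log2 ratios of summed reads, groups 2 to 8 were negative and group 9 positive. Group 3 had the lowest ratio of them, -1.22 (-1.31 to -1.13), followed by group 6 (-1.15), group 5 (-1.12), group 2 (-1.04), group 4 (-0.81), group 7 (-0.65) and group 8 (-0.44, -0.65 to -0.23). Group 9 stood at 1.59 (1.06 to 2.16), from 38 control and 122 knockdown reads, and group 10 at 2.18 (0.74 to 4.31), from 4 and 21 reads. Grouped into regions, groups 1 to 4 had 7208 and 3732 reads (log2 -1.03), groups 5 to 8 had 8390 and 4238 (log2 -1.07), and groups 9 to 13 had 43 and 145 (log2 1.66, 1.17 to 2.2). The anterior and middle regions therefore had nearly the same ratio, and only 1 of the 16 posterior genes, Hoxb9, was measured. The posterior sum was not uniform over clusters. In groups 9 to 13, cluster A had 8 and 36 reads, cluster B 7 and 56 and cluster C 2 and 29. Cluster D had 26 and 24 reads there (log2 -0.20, -1.06 to 0.66). Most of these, and of the control reads of group 9, were from Hoxd9 (24 and 21 reads).

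The make-up of single paralog groups differed between the libraries. In group 5, Hoxc5 supplied 0.365% of the summed control FPKM and 3.98% of the summed knockdown FPKM, and the share of Hoxb5 was 49.7% and 35.0%. In group 4, Hoxc4 supplied 1.57% and 9.19%. In group 8, where Hoxb8 made up 95.3% of the control level, Hoxc8 supplied 0.243% and 13.2% and Hoxd8 4.48% and 18.1%. Comparing reads of a cluster C or D gene with those of its A and B paralogs removes the scaling between libraries. That ratio was higher in the knockdown library by a factor of 11.3 (7.83 to 16.4) for Hoxc5, 11.6 (7.03 to 19.0) for Hoxd3, 6.56 (4.78 to 9.01) for Hoxc4, 5.61 (3.08 to 10.2) for Hoxd8 and 3.45 (2.10 to 5.65) for Hoxd4. For Hoxc6 and Hoxc8, with 2 and 1 control reads, the factors were 95.5 (23.4 to 390) and 75.6 (10.3 to 552). In group 9 it was lower for Hoxd9, by a factor of 0.139 (0.0606 to 0.317), since Hoxa9 and Hoxb9 were the genes with more reads there. The interval held 1 for Hoxd1 (1.79, 0.241 to 13.2), Hoxc9 (3.01, 0.371 to 24.5) and Hoxd10 (0.333, 0.0316 to 3.51), all with few reads.

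**Figure D3:**
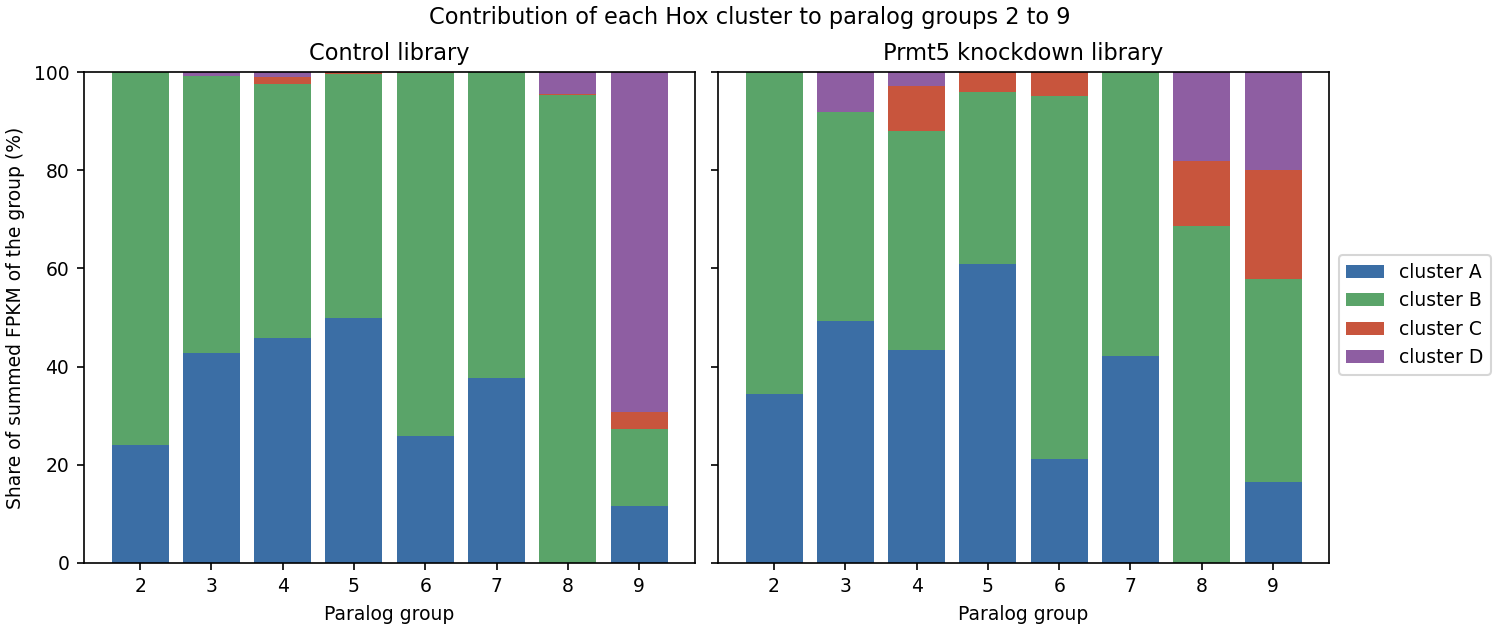
Share of each cluster in the summed FPKM (percent) of paralog groups 2 to 9 in the control library (left) and the Prmt5 knockdown library (right). Clusters A and B fill nearly all of groups 2 to 8 in the control, and clusters C and D take visible shares of groups 3, 4, 5, 6 and 8 in the knockdown library; group 9 rests on 38 and 122 reads.

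Levels of neighbouring genes in a cluster were compared as ratios of FPKM, and several steps differed between the libraries, in either direction. At the posterior end of the expressed genes the steps in clusters A, B and C were shallower in the knockdown library, and they rest on Hoxa9, Hoxb9 and Hoxc6, with 6, 7 and 2 control reads. Hoxb8 had 63.9 times the FPKM of Hoxb9 in the control and 4.65 times in the knockdown library, a step smaller by a factor of 13.7 (6.16 to 30.6). Hoxa7 over Hoxa9 went from 26 to 4.46, a factor of 5.84 (2.28 to 14.9). In cluster C the step lay further forward, between Hoxc5 and Hoxc6, and went from 24.3 to 3.18, a factor of 7.64 (1.79 to 32.6). At the anterior end of cluster B, Hoxb1 over Hoxb2 was 0.0025 and 0.0023, with an interval of the change (0.21 to 5.65) that held 1. In cluster D, Hoxd1 over Hoxd3 went from 0.574 to 0.0829, a factor of 6.93 (1.99 to 24.2) further from 1. Hoxd9 over Hoxd10 was 13.2 and 7.72, with an interval of the change (0.26 to 11.3) that held 1, and Hoxd8 over Hoxd9 turned from 0.682 to 2.55. Inside the expressed blocks, from Hoxa2 to Hoxa7 and from Hoxb2 to Hoxb8, the factor of neighbouring genes ranged from 0.597 (0.446 to 0.798, Hoxa5 over Hoxa6) to 2.12 (1.40 to 3.22, Hoxa6 over Hoxa7).

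Hox proteins bind DNA together with cofactors of the TALE homeodomain class. Of the 8 cofactors reported here, which are not the whole list, all were measured, and 0 were lower, 1 higher and 7 not past the rule (median log2 ratio -0.30), beside 12.3% lower and 20.7% higher among all measured genes. Pbx2 had 86 and 237 reads (0.340 and 0.819 FPKM, log2 1.37, 1.02 to 1.75) and was higher, a call that is lost with FPKM at a pseudocount of 1. The log2 ratios of the others were -0.46 for Pknox2, -0.46 for Pbx3, -0.42 for Meis1, -0.33 for Meis3, -0.28 for Pknox1, 0.04 for Meis2 and 0.36 for Pbx4. Pbx4 rested on 41 and 56 reads, and the other 6 of these had intervals that ended between -0.70 and 0.14.

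Noncoding RNAs inside the clusters were counted by the same rule. The deposited counts list 28 such RNAs, of which 7 were measured, all in clusters A and B, and 4 were lower and 0 higher, beside 12.3% lower and 20.7% higher among all measured genes. The count of lower RNAs was 2 with FPKM at a pseudocount of 1, and 1 at a ratio of 2 or a minimum of 200 reads. With a minimum of 10 reads or no filter, 2 RNAs were higher. The 4 lower RNAs were Hoxb3os (59 and 28 reads, log2 -1.15), Hoxb5os (161 and 105, log2 -0.70), Hoxaas2 (191 and 130, log2 -0.64) and 5730596B20Rik (218 and 149, log2 -0.63). Gm15050 (log2 -0.41), Mira (-0.32) and Hotairm1 (184 and 175 reads, -0.16) did not pass the rule. Without strand information, reads of an antisense RNA and of the Hox gene opposite cannot be told apart. Hotair in cluster C and Hottip beside cluster A, RNAs of the posterior body, had no reads in either library. In clusters C and D, Gm30528 had 11 and 38 reads and Haglr 4 and 14.

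Protein-coding genes just outside the clusters were counted in the same way. The deposited counts list 17 flanking genes, of which 12 were measured, with 1 lower, 1 higher and 10 not past the rule (median log2 ratio -0.04), beside the 12.3% lower and 20.7% higher of all measured genes. The lower count was 2 with total counts or FPKM and 0 with DESeq2 size factors or a ratio of 2, and the higher count was 0 with FPKM at a pseudocount of 1 or a ratio of 2. The lowest were Hnrnpa3 beside cluster D (-0.59, -0.65 to -0.53), Cbx1 beside cluster B (-0.50) and Skap2 beside cluster A (-0.41). The highest were Snx10 beside cluster A (142 and 251 reads, 0.74, 0.43 to 1.04), Calcoco1 beside cluster C (0.44) and Hibadh beside cluster A (0.41). The lowest and the highest genes thus came from flanks of several clusters. Evx1 and Evx2, homeobox genes at the posterior ends of clusters A and D, had at most 5 reads in a library.

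Marker lists of the lung and of other organs moved between the same libraries, and their part in the Hox results was not tested. The counts below stand beside 12.3% lower and 20.7% higher among all measured genes. The 10 lung mesenchyme genes (7 lower and 1, Osr1, higher) had a median log2 ratio of -1.23 and a summed level that went from 549 to 218 FPKM, beside 140 and 70.4 FPKM for Hox cluster A and 207 and 74.3 FPKM for cluster B. The 10 lung epithelium genes summed to 1019 and 218 FPKM (median -2.17). Higher lists were liver (49.9 and 6557 FPKM), heart muscle (186 and 5274), skeletal muscle (21.2 and 773), adrenal cortex (1.47 and 50.4), red blood cell (1866 and 3014, 6 of 8 higher), spinal cord and ganglia (12.9 and 39.4, 6 of 6 measured higher) and thymus and pharynx (0.537 and 6.64, 4 of 4 measured higher). Of 6 measured limb and body wall genes 5 were higher and none lower (33.4 and 74.6 FPKM), among them Pitx1 (72 and 641 reads), Tbx15 (9 and 145) and Twist1 (136 and 1048). Of 7 measured kidney and urogenital genes 5 were higher and 1 lower (39.9 and 62.2 FPKM). The higher genes were Six2 (26 and 327 reads), Foxd1 (24 and 110), Gdnf (24 and 82), Wt1 (600 and 1389) and Osr1 (908 and 1646), and Cdh16 (558 and 115) was lower. In that list Pax2 (14 and 2 reads) and Pax8 (1 and 1) were near 0 and Lhx1 had no reads, and Wt1 and Osr1, which lung mesothelium or mesenchyme also express, carried much of the sum. Olig2, of the spinal cord, also had no reads in either library, and En1, Mc2r, Pax1 and Gcm2 had none in the control. Of the markers under the read minimum, Tbx1 (thymus and pharynx, 18 and 5 reads), Lmx1b (limb and body wall, 11 and 2) and Pax2 had counting intervals below 0. The intervals of En1, Myf5 and Cyp17a1, also under the minimum, lay above 0. Which cells the reads of clusters C and D came from cannot be told from whole-organ counts.

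**Figure D4:**
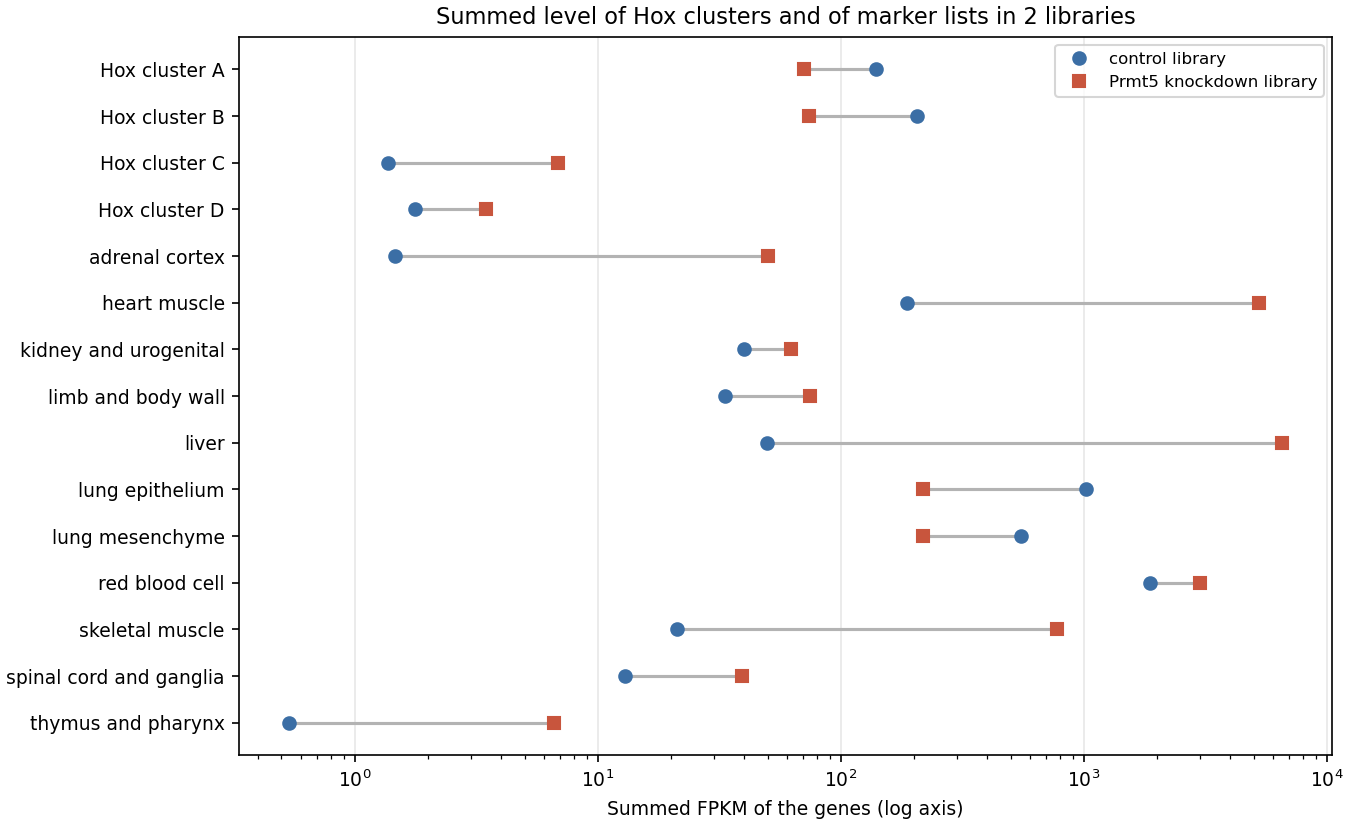
Summed FPKM (log axis) of each Hox cluster and of each marker list in the control library (circles) and the Prmt5 knockdown library (squares). The sums of Hox clusters A and B and of the lung epithelium and lung mesenchyme lists are lower in the knockdown library. Those of Hox clusters C and D and of the other lists are higher, and a link between them was not tested.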

How the data were processed

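The authors deposited raw read counts per gene and FPKM values for 1 control and 1 Prmt5 knockdown library. Bowtie2 2.2.3, TopHat2 2.0.12, HTSeq 0.6.1 and mm10 are named in the submitters' processing notes; annotation, strand setting and the handling of multiply mapped reads: not given in the sources used here. In the deposited tables the FPKM equals the count over a gene length and the library total, and the implied lengths were whole within 0.001 bp in 100% of 22831 genes with reads in both libraries. Of the 41709 entries 40269 have a symbol in RefSeq GRCm38.p6, which also gave coordinates and promoter windows.

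Counts were scaled by TMM factors (edgeR 4.0.16, factors 1.04 and 0.963). Ratios used a prior count of 0.5 and exact Clopper-Pearson 95% intervals of the 2 counts given their sum, over all genes. Ratios of 2 genes' reads used a log-normal interval (scipy 1.17.1). The scripts were tested on simulated data. Alternatives were total counts, DESeq2 1.42.0 size factors, TMM without organ genes, FPKM with pseudocounts of 0.1 and 1, a prior of 2, other read minima, a ratio of 2, the mean and Wilson intervals. All Hox members are named, the cofactors reported, and the 3 lowest and 3 highest of longer lists; 5730596B20Rik completes a count and, like the single markers, was chosen after its values were seen. Members and lists were chosen with earlier results of these data known. A few genes of these families and lists are not reported here.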

Additional observations from a re-analysis of the deposited data

How the results depend on the processing

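All 18 measured Hox genes kept the sign of their log2 ratio under each scaling, FPKM and the prior count of 2. The count of lower Hox genes was 6 at a ratio of 2 in place of 11. The count of higher Hox genes was 10 with a minimum of 10 reads, 11 without a filter, 0 with a minimum of 200 reads and 3 with 100 reads over both libraries (chosen after seeing the data), in place of 5. Among all genes, 21.6% were higher with a minimum of 10 reads and 15.1% with a minimum of 1 read. The median over measured Hox genes was -0.53 with a minimum of 10 reads, -0.27 without a filter and -0.0013 as a mean. Medians of clusters were -0.55 for A without a filter, 3.63 for C with a minimum of 10 reads or no filter, and 1.17 and 0.58 for D. FPKM with a pseudocount of 1 compressed low genes, giving medians of 0.88 for C, 0.81 for D and 0.69 for groups 9 to 13, and log2 ratios of summed levels of 1.73 for C and 0.68 for D. Summed levels of A and B were -0.97 and -1.48 with total counts, -0.99 and -1.47 with FPKM at a pseudocount of 0.1 and -0.98 and -1.46 at 1. Total counts moved the median of all measured genes from -0.01 to -0.12. No paired analysis was possible because each group has 1 library, and leaving out a replicate could not be done. Depth limits clusters C and D and groups 9 to 13, where most control counts are under 50.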

Other observations

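Regulators that act upstream of Hox genes were described for the 21 genes reported here, which are not the whole list. Of these 15 were measured, and 7 were lower, 0 higher and 8 not past the rule (median log2 ratio -0.56), beside 12.3% lower and 20.7% higher among all measured genes. The Polycomb subunit Cbx2, which binds methylated histone H3 at silent Hox genes, had 2135 and 1055 reads (19.7 and 8.49 FPKM, log2 -1.10, -1.21 to -0.99). The retinoic acid receptor Rarg had 1858 and 1019 reads (log2 -0.95) and the menin gene Men1, a partner of the Hox-activating methyltransferase Kmt2a, 82 and 48 reads (log2 -0.85, -1.40 to -0.33). The highest ratios were those of the Polycomb subunit Suz12 (log2 0.26, 0.18 to 0.35), the ubiquitin ligase Rnf2 (log2 0.10) and the Polycomb subunit Eed (log2 -0.09), none of which passed the rule. Cdx2 and Cdx4, homeobox activators of posterior Hox genes, had no reads in either library, and Cdx1 had 4 and 5.

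Homeobox genes related to the Hox family in sequence were mostly near 0. Of 13 such genes 2 were measured: Meox2, a mesenchyme factor, was lower (975 and 458 reads, 18.4 and 7.55 FPKM, log2 -1.17, -1.34 to -1.01), and its paralog Meox1, a somite factor, was higher (302 and 575 reads, 6.06 and 10.1 FPKM, log2 0.84, 0.64 to 1.05). Pdx1, of the pancreas and duodenum, had 0 and 6 reads, and the motor neuron and pancreas gene Mnx1 13 and 26. Gsx1 and Gsx2, of the brain, had no reads.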
